A study of Homo sapiens with 6 samples.

Results

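The genes described here are 34 members of the p53 pathway: inhibitors of p53 and genes that p53 is known to switch on. They were chosen by name, with earlier results of these data known. Each symbol matched 1 of the 78932 Ensembl gene identifiers in the count tables once the version suffix was dropped. The p53 gene itself is not among the 34 and is not analysed here. RNA sequencing was done on Karpas-45, a cell line established from a human acute lymphoblastic leukemia of the T lineage. By its title the study is about targeting menin in such leukemias, and the experiment compares cells carrying a hairpin against the transcription factor MEF2C with cells carrying a scramble hairpin. There were 3 MEF2C hairpin libraries (shMEF2C in the plots; genotype labelled MEF2C KD, 1 hairpin, named shMEF2CKD2) and 3 scramble libraries (genotype labelled WT). Cells of either group were of the same line and labelled untreated. Per the series' text, the hairpin vector was lentiviral and linked to GFP, and cells with GFP were sorted 120 hours after transduction; that text describes the MEF2C hairpin and not the scramble vector. The labels call the 3 libraries of a group technical replicates, and every p-value below therefore rests on technical spread alone.

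p53 is a transcription factor that accumulates after DNA damage and other stress and activates genes for cell cycle arrest, DNA repair and cell death. Its level and activity are held down by MDM2, a ubiquitin ligase that marks p53 for degradation, and by the related protein MDM4, which blocks its activating domain. Since MDM2 is itself a p53 target, the pair form a feedback loop, and thymocytes are among the cells in which p53 readily triggers death after DNA damage.

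Reads assigned to genes ran from 45560303 to 97077335 per library. The largest share of reads aligned to more than 1 place, 16.1%, was in MEF2C hairpin replicate 3, against 3.56 to 6.86% in the other 5 libraries. MEF2C received 2, 0 and 0 reads in MEF2C hairpin replicates 1 to 3 and 2, 1 and 0 reads in scramble replicates 1 to 3. No library of either group exceeded the floor of 3 reads. The targeted gene therefore gives no check of the labels, and a fall of MEF2C RNA cannot be shown from these counts. All 9 listed T-lineage markers were tested, among them PTPRC, which white blood cells share in general. Their summed level was 2832 to 2871 CPM (read counts scaled to library size and TMM factor) in MEF2C hairpin libraries and 2702 to 2738 CPM in scramble libraries. Virus was produced in HEK293T embryonic kidney cells, and of 8 markers of such cells NEFM, LIN28B and NEFL were at 0 reads in all 6 libraries. The list summed to 184 to 195 CPM in MEF2C hairpin and 180 to 197 CPM in scramble libraries. Most of that sum came from 1 gene at 100 CPM or over. The other 3 kidney markers tested lay between 20 and 100 CPM, between 1 and 5 CPM and under 1 CPM. The part of these differences between libraries in the results below was not tested. In RNA from a bulk culture, fewer cells expressing a gene and less RNA per cell cannot be told apart.

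The members did not move together. Of the 34, 30 had enough reads to be tested, and 8 of these rose and 5 fell in MEF2C hairpin libraries by edgeR's quasi-likelihood test, at a Benjamini-Hochberg adjusted p under 0.05 over all 17677 tested genes. The 8 that rose make up 26.7% of the tested members, where 13.5% of all tested genes were higher. The 5 that fell make up 16.7%, where 15.3% of all tested genes were lower. The median log2 fold change, MEF2C hairpin over scramble, was -0.03 over the tested members and 0.00 over all tested genes. The members that rose were PHLDA3, NINJ1, TP53I11, TP53I13, MDM2, SUSD6, CCNG1 and TRAF4, and those that fell were PLK3, CCNG2, MDM4, APAF1 and ASCC3.

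The 5 falls spanned -0.11 to -0.22 on the log2 scale and the 8 rises 0.11 to 0.72. With an absolute log2 fold change of at least 0.2 also required, 6 members were higher, where 8.73% of all tested genes were, and 1, PLK3, was lower (3.33%, where 5.01% of all tested genes were). All 3 MEF2C hairpin libraries lay above all 3 scramble libraries for 9 of the 30 members, where 19.5% of all tested genes showed this. They lay below for 8 of the 30, where 20.5% of all tested genes did.

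**Figure D1:**
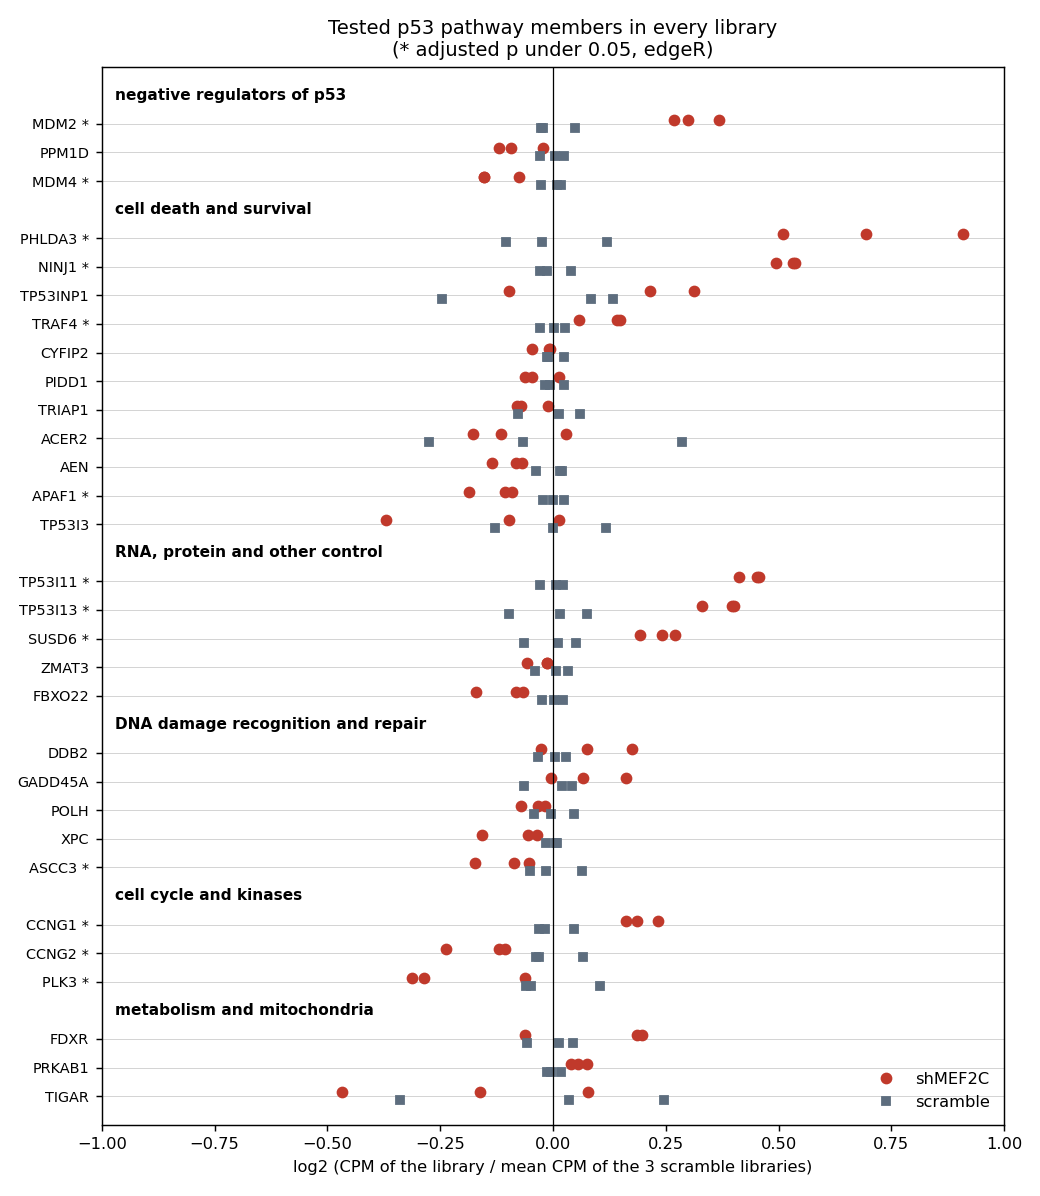
Each row is 1 of the 30 tested members, grouped by role and, within a role, ordered by fold change; circles are the 3 MEF2C hairpin libraries and squares the 3 scramble libraries, as log2 of the library's CPM over the mean of the scramble libraries. In 9 rows all circles stand to the right of all squares, with the largest rises for PHLDA3, NINJ1, TP53I11, TP53I13 and MDM2. In 8 rows they stand to the left of all squares. Of all tested genes, 19.5% and 20.5% showed this. Most rows other than those named keep close to 0.

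Sequence from RefSeq (GRCh38.p14) was searched for the binding site of p53, because the members are defined by that factor. The windows ran from 250 bases before to 50 bases after each listed start, and 29 of the 34 members had 1 or more of them, 41 in all. The motif was the p53 response element: 2 half-sites of 10 bases, 0 to 13 bases apart, with the central C and G of each half-site required and at most 2 mismatches elsewhere. The half-site reads the same on both strands, so 1 pass covered both, and overlapping matches were counted once per window. A match was found in 5 of the 41 member windows, belonging to MDM2, DDB2, AEN and FDXR, and in 2.93% of all 35116 windows. An exact match stood in 10 of all the windows, 1 of them that of DDB2. The stretches below show each match in capitals; the MDM2 stretch stops short of annotated exons, and the others, which lie in annotated exons, are kept to 30 bases.
MDM2 (chr12:68808823-68809001, plus strand): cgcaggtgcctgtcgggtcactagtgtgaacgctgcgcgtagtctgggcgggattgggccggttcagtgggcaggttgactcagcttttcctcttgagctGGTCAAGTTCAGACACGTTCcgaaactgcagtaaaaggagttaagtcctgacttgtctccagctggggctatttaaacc
DDB2 (chr11:47214970-47214999, plus strand): agctggtttGAACAAGCCCTGGGCATGTTT
AEN (chr15:88621296-88621325, plus strand): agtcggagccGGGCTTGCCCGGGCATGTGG
FDXR (chr17:74872996-74873025, minus strand): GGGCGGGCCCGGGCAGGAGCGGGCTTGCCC

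The match of MDM2 lay from 94 to 75 bases before the start at position 68809017, which belongs to the downstream of its promoters; 2 of the 4 MDM2 windows held it. That of DDB2 lay 6 to 26 bases after its start. Of these 4 genes only MDM2 passed the test, and the values of DDB2, AEN and FDXR are given with their groups below. A match of letters is a description, and the windows without one hold only 300 bases each.

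MDM2 rose and MDM4, the other partner in restraint of p53, fell. At their level, 100 CPM or over in scramble libraries, 11.5% of all tested genes rose and 46.4% fell. The median log2 fold change at that level was -0.05, and MDM2 stood 0.36 above it and MDM4 0.07 below it. MDM2 (ENSG00000135679.27, chromosome 12, 68808176 to 68850686 in GRCh38) measured 155, 151 and 162 CPM in MEF2C hairpin replicates 1 to 3 and 130, 124 and 123 CPM in scramble replicates 1 to 3. Every MEF2C hairpin library lay above every scramble library. The mean was 156 ± 5.54 CPM in MEF2C hairpin and 126 ± 3.74 CPM in scramble libraries (SD, n = 3 each). On the log2 scale MDM2 rose by 0.31 (SE 0.0275, edgeR adjusted p = 1.63e-11). Counts are per gene, so reads from the promoter shown above and from the upstream one are summed.

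MDM4 (ENSG00000198625.14, chromosome 1, 204516379 to 204558120) measured 185, 185 and 195 CPM in MEF2C hairpin and 207, 208 and 202 CPM in scramble libraries. The groups did not overlap, and MEF2C hairpin replicate 3 came closest to the scramble libraries. On the log2 scale the change was -0.13 (SE 0.0245, edgeR adjusted p = 8.7e-05). By that fitted value MDM4 fell by 8.44%. PPM1D, the WIP1 phosphatase that reverses damage-induced phosphorylation of p53, measured 46.7 ± 1.65 CPM in MEF2C hairpin and 49.3 ± 0.890 CPM in scramble libraries (SD, n = 3 each), and did not pass (log2 fold change -0.08, edgeR adjusted p = 0.128).

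Among genes of cell death and survival, 11 of 13 were tested, 3 rose, APAF1 fell and 7 did not pass. NINJ1, whose product drives rupture of the plasma membrane in dying cells (ENSG00000131669.10, chromosome 9, 93121489 to 93134288), measured 38.94, 39.99 and 40.10 CPM in MEF2C hairpin and 27.10, 28.45 and 27.41 CPM in scramble libraries. The gap between the groups was wider than the range within either. NINJ1 rose by 0.52 on the log2 scale (SE 0.0442, edgeR adjusted p = 4.94e-12), the largest rise among members of at least 20 CPM in scramble libraries.

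PHLDA3, a pleckstrin-homology protein that restrains AKT (ENSG00000174307.7, chromosome 1, 201464383 to 201469237), measured 3.35, 3.89 and 2.95 CPM in MEF2C hairpin and 2.04, 1.93 and 2.25 CPM in scramble libraries. The MEF2C hairpin libraries all lay higher but spread more widely than for NINJ1. PHLDA3 rose by 0.72 on the log2 scale (SE 0.150, edgeR adjusted p = 0.000252), the largest rise of the 30. The value rests on 736 reads in MEF2C hairpin and 348 reads in scramble libraries, and 19.1% of its exonic bases are covered by exons of other genes. The largest overlap of PHLDA3 is with AC096677.2 on the same strand, as that of TIGAR below is with AC008012.1. Stranded counting would not separate the reads of those pairs. Whether the counting used strand is not stated. For this and the other genes given with an overlap, the assignment of reads in shared exons is uncertain.

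TRAF4, an adaptor of the TNF receptor-associated factor family, measured 91.1, 85.5 and 90.7 CPM in MEF2C hairpin and 80.6, 82.3 and 83.7 CPM in scramble libraries. The groups were close but did not overlap, and TRAF4 rose by 0.11 on the log2 scale (SE 0.0311, edgeR adjusted p = 0.00436). Other exons cover 16.9% of its exonic bases. APAF1, the core of the caspase-activating apoptosome, measured 48.1, 51.5 and 50.9 CPM in MEF2C hairpin and 55.7, 54.8 and 53.9 CPM in scramble libraries. The groups did not overlap, and APAF1 fell by 0.13 on the log2 scale (SE 0.0373, edgeR adjusted p = 0.00866).

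The remaining genes of this role did not pass the test. AEN, a nuclease induced by p53, gave 47.0, 48.8 and 49.2 CPM in MEF2C hairpin and 50.3, 52.2 and 52.4 CPM in scramble libraries, which did not overlap but did not pass (log2 fold change -0.09, edgeR adjusted p = 0.0559). CYFIP2, a subunit of the actin-regulating WAVE complex, was the member with the highest CPM, at 299 ± 4.53 CPM in MEF2C hairpin and 303 ± 4.27 CPM in scramble libraries (SD, n = 3 each; edgeR adjusted p = 0.556). PIDD1, the scaffold of the caspase-2 activating complex, had a log2 fold change of -0.03, and TRIAP1, a small mitochondrial survival protein, one of -0.05. TP53INP1, an autophagy-linked stress protein, had 0.13 and ACER2, a Golgi ceramidase, -0.09 on the same scale. TP53I3, a quinone oxidoreductase known as PIG3 and a much used p53 target, had few reads, at 0.606, 0.791 and 0.732 CPM in MEF2C hairpin and 0.850, 0.717 and 0.784 CPM in scramble libraries, which overlapped.

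In the group of RNA, protein and other control, 3 of 5 rose and ZMAT3 and FBXO22 did not pass. TP53I11, a p53-induced gene also called PIG11 (ENSG00000175274.19, chromosome 11, 44885903 to 44951306), measured 27.80, 28.56 and 28.65 CPM in MEF2C hairpin and 20.48, 20.98 and 21.20 CPM in scramble libraries. The libraries of a group lay within 1 CPM of each other, and the groups far apart. TP53I11 rose by 0.44 on the log2 scale (SE 0.04995, edgeR adjusted p = 5.85e-09).

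TP53I13, a p53-induced membrane protein gene (ENSG00000167543.16, chromosome 17, 29566052 to 29573157), measured 35.0, 33.3 and 34.9 CPM in MEF2C hairpin and 26.8, 24.8 and 28.0 CPM in scramble libraries. It rose by 0.37 on the log2 scale (SE 0.0485, edgeR adjusted p = 1.29e-07). SUSD6, a sushi-domain membrane protein, measured 41.0, 41.8 and 39.7 CPM in MEF2C hairpin and 33.2, 34.9 and 35.9 CPM in scramble libraries, a rise of 0.24 on the log2 scale (SE 0.0433, edgeR adjusted p = 3.68e-05). For both genes every MEF2C hairpin library was above every scramble library. ZMAT3, an RNA-binding zinc finger protein and widely shared p53 target, measured 76.2, 78.6 and 78.6 CPM in MEF2C hairpin and 79.7, 81.2 and 77.1 CPM in scramble libraries, and these overlapped (log2 fold change -0.03, SE 0.0313, edgeR adjusted p = 0.585). FBXO22, an F-box subunit of a ubiquitin ligase, had a log2 fold change of -0.11 (edgeR adjusted p = 0.0574) with groups that did not overlap, and 16.2% of its exonic bases lie under other exons.

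**Figure D2:**
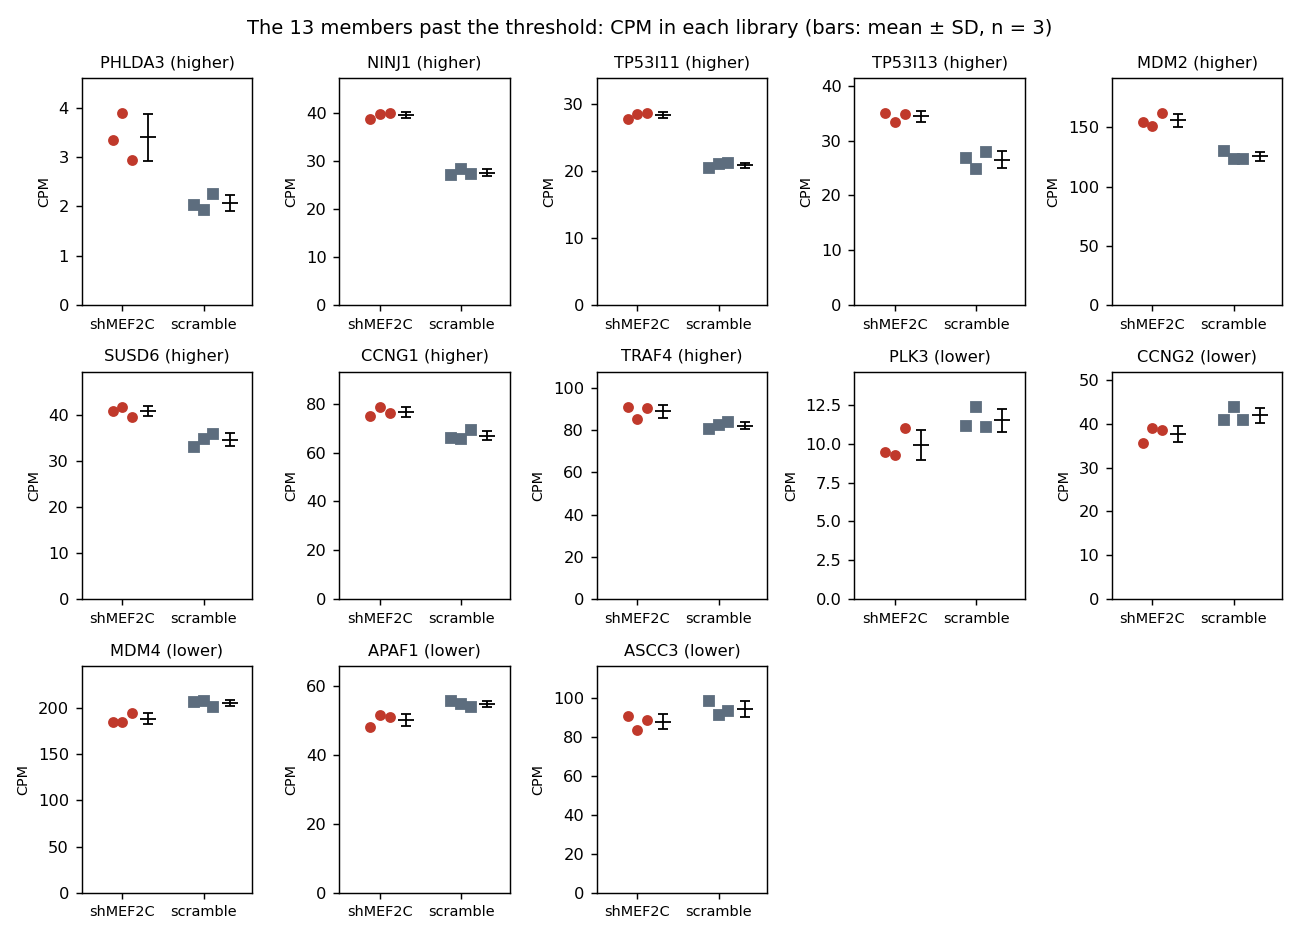
CPM of the 13 members past the threshold in each library, MEF2C hairpin left and scramble right, each panel with its own axis from 0; the bar beside the points is the mean with its SD over 3 libraries. The groups are separate in every panel, widely so for NINJ1 and TP53I11 and narrowly for PLK3, TRAF4 and ASCC3.

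Of the genes of DNA damage recognition and repair, 1 of 5 fell and 4 did not pass. ASCC3, a helicase that acts in alkylation repair and on stalled ribosomes, measured 91.2, 83.8 and 89.0 CPM in MEF2C hairpin and 98.9, 91.3 and 93.6 CPM in scramble libraries. The highest MEF2C hairpin library lay just under the lowest scramble library, and ASCC3 fell by 0.11 on the log2 scale (SE 0.0327, edgeR adjusted p = 0.0104). DDB2, a damage sensor of nucleotide excision repair whose window held the exact p53 site, measured 24.27, 22.66 and 21.10 CPM in MEF2C hairpin and 21.94, 21.005 and 21.55 CPM in scramble libraries. The groups overlapped (log2 fold change 0.08, SE 0.0554, edgeR adjusted p = 0.335).

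XPC, its partner in damage recognition, did not pass (log2 fold change -0.08, SE 0.0453, edgeR adjusted p = 0.207), and 30.4% of its exonic bases lie under other exons. POLH, the polymerase that copies past ultraviolet damage, had -0.04 (SE 0.0295, edgeR adjusted p = 0.317). GADD45A, a stress-induced growth arrest gene, measured 10.9 ± 0.633 CPM in MEF2C hairpin and 10.4 ± 0.395 CPM in scramble libraries (SD, n = 3 each; edgeR adjusted p = 0.515). The values of these 4 differed by less than the test can separate, which does not show that they are equal.

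The G-type cyclins moved apart. CCNG1, an atypical cyclin that brings a phosphatase to MDM2 (ENSG00000113328.21, chromosome 5, 163437569 to 163446151), measured 74.9, 78.8 and 76.2 CPM in MEF2C hairpin and 66.2, 65.6 and 69.2 CPM in scramble libraries. It rose by 0.19 on the log2 scale (SE 0.0330, edgeR adjusted p = 1.31e-05). CCNG2, a related cyclin that is high in resting cells and is also a FOXO target, measured 35.5, 38.9 and 38.5 CPM in MEF2C hairpin and 40.8, 43.8 and 41.0 CPM in scramble libraries. It fell by 0.15 on the log2 scale (SE 0.0439, edgeR adjusted p = 0.00843). In neither gene did the groups overlap.

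PLK3, a stress-responsive polo-like kinase, measured 9.45, 9.27 and 11.0 CPM in MEF2C hairpin and 11.1, 12.4 and 11.1 CPM in scramble libraries. MEF2C hairpin replicate 3 was almost level with the scramble libraries, and of the 13 calls that of PLK3 had the highest adjusted p (log2 fold change -0.22, SE 0.0801, edgeR adjusted p = 0.0354). PLK3 lost its call in DESeq2 and when MEF2C hairpin replicate 1, MEF2C hairpin replicate 2 or scramble replicate 2 was left out, with adjusted p from 0.00391 to 0.202 over 14 alternatives. CCNG2 lost its call without MEF2C hairpin replicate 1 or scramble replicate 2 (adjusted p from 0.00509 to 0.0824 over 14 alternatives), APAF1 without MEF2C hairpin replicate 1 (0.00907 to 0.0732) and ASCC3 without MEF2C hairpin replicate 2 or scramble replicate 1 (0.00303 to 0.164). MDM4 and the 8 genes that rose kept their calls in all 14 of these refits, though MDM4, CCNG1 and TRAF4 lie under the added size of 0.2.

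The tested genes of metabolism and mitochondria, FDXR, PRKAB1 and TIGAR, did not pass. FDXR, the mitochondrial ferredoxin reductase, measured 9.70, 9.78 and 8.17 CPM in MEF2C hairpin and 8.79, 8.61 and 8.19 CPM in scramble libraries. MEF2C hairpin replicate 3 was the lowest library and the other two were the highest (log2 fold change 0.12, SE 0.0859, edgeR adjusted p = 0.338). PRKAB1, a regulatory subunit of the energy-sensing kinase AMPK, measured 69.33, 71.05 and 70.14 CPM in MEF2C hairpin and 66.83, 67.30 and 68.29 CPM in scramble libraries, separate but not past the threshold (log2 fold change 0.06, SE 0.0321, edgeR adjusted p = 0.198). TIGAR, a phosphatase that slows glycolysis, overlapped between the groups (log2 fold change -0.15, SE 0.137, edgeR adjusted p = 0.481), and 45.6% of its exonic bases are shared with other exons.

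The 4 members that were not tested were almost without reads. EDA2R, a receptor of the TNF receptor family, and PERP, a tetraspan membrane protein of epithelia, had 0 reads in all 6 libraries. For each, the exact Poisson interval (95%) of 0 reads over a whole group reaches up to 0.0178 CPM in MEF2C hairpin and 0.0218 CPM in scramble libraries. PLK2, a kinase of the same family as PLK3, had 2 reads in MEF2C hairpin and 1 read in scramble libraries. SPATA18, a gene of mitochondrial quality control, had 0 reads in MEF2C hairpin and 4 reads in scramble libraries. These limits cover counting error only.

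Levels were compared between genes after division by exon length. In scramble libraries CYFIP2 was the highest member, at 28.9 CPM per kilobase, followed by POLH at 27.0, TRIAP1 at 22.4, CCNG1 at 21.6 and MDM4 at 18.7 CPM per kilobase. MDM2 stood at 11.7 CPM per kilobase in MEF2C hairpin and 9.45 in scramble libraries, against 17.1 and 18.7 for MDM4. By this measure, in which all annotated exons of a gene are joined, MDM4 was the higher of the pair in both groups. The lengths of the transcripts present in these cells were not measured, and the order may depend on them. PHLDA3, with the largest fold change, was among the lowest tested members, at 1.08 CPM per kilobase in MEF2C hairpin and 0.660 in scramble libraries.

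Over all tested genes the share that fell grew with expression level, and the members were therefore also read against all tested genes of the same scramble level. Most members, 19, lay between 20 and 100 CPM. There 6 of the 19 rose, where 16.8% of 5011 genes did, and 3 of the 19 fell, where 23.0% did. Of the 3 members at 100 CPM or over, MDM2 rose, where 11.5% of 2581 genes did, and MDM4 fell, where 46.4% did. The median log2 fold change of that class was -0.05, so that MDM2 stood 0.36 above it and MDM4 0.07 below it on the log2 scale.

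Of the 5 members between 5 and 20 CPM, PLK3 fell, where 8.66% of 2553 genes did, while 21.8% of those genes rose. Of the 2 between 1 and 5 CPM, PHLDA3 rose, where 14.2% of 2805 genes did. TP53I3 was the 1 member under 1 CPM. The class median was 0.08 between 1 and 5 CPM and -0.02 between 20 and 100 CPM, so that PHLDA3 stood 0.64 and NINJ1 0.54 above their own class.

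**Figure D3:**
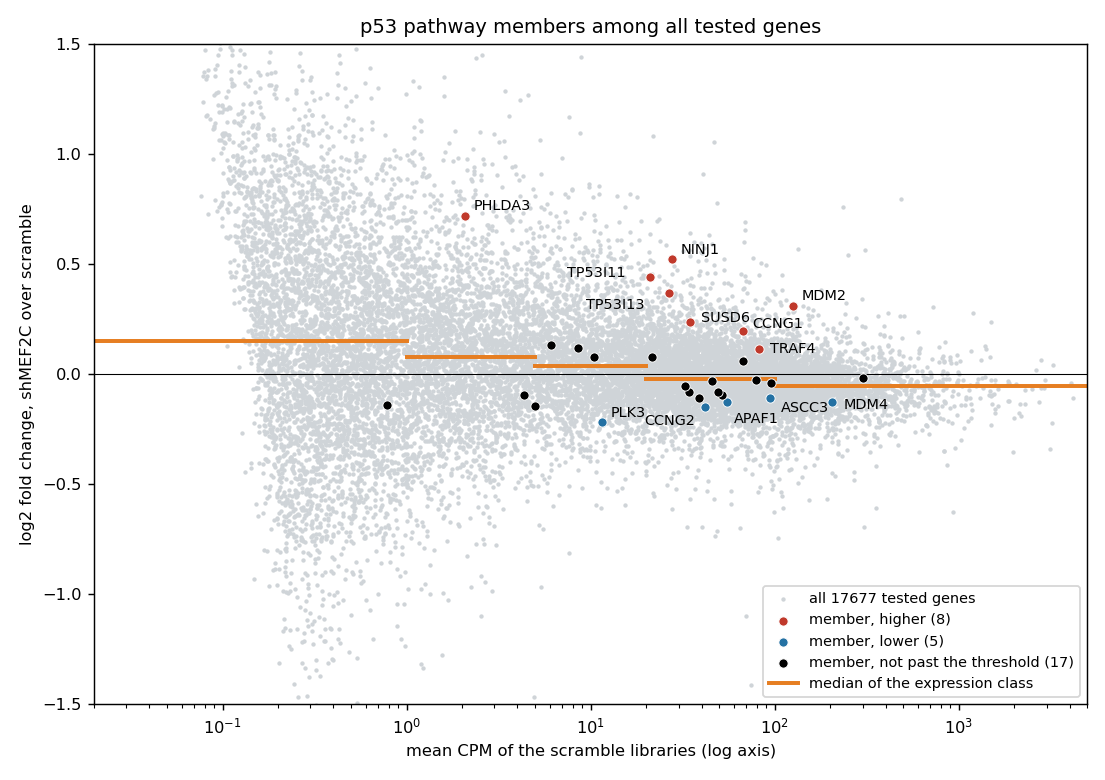
Log2 fold change (MEF2C hairpin over scramble) against the mean CPM of the scramble libraries on a log axis, with all 17677 tested genes in grey, the 30 tested members in red (higher), blue (lower) or black (not past the threshold), and the median of each expression class as an orange bar; 114 genes beyond 1.5 in either direction lie outside the frame. The class medians slope from 0.15 under 1 CPM to -0.05 at 100 CPM and over, and the members that rose lie above them.

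The rest of the pathway was read from lists chosen beside the members, likewise with earlier results of these data known. Of 64 further genes known as p53 targets, 53 were tested, with a median log2 fold change of 0.03. Of these 14 rose (26.4%, where 13.5% of all tested genes did) and 8 fell (15.1%, where 15.3% did). Of the 20 between 20 and 100 CPM, 4 rose and 6 fell, where 16.8% and 23.0% of all tested genes there did. Of the 13 between 5 and 20 CPM, 6 rose and 1 fell, where 21.8% and 8.66% did. Between 1 and 5 CPM 2 of 8 rose, where 14.2% did, and under 1 CPM 0 of 7, where 6.22% did. At 100 CPM or over 2 of 5 rose, where 11.5% did. Without MEF2C hairpin replicate 1 the count of these targets that rose was 9. With a log2 change of at least 0.2 it was also 9, where 8.73% of all tested genes were higher. CDKN1A, which encodes the cell cycle inhibitor p21, measured 11.1, 11.2 and 10.8 CPM in MEF2C hairpin and 4.73, 5.38 and 5.75 CPM in scramble libraries. The groups lay far apart (log2 fold change 1.06, edgeR adjusted p = 4.95e-12). PLXNB2, a semaphorin receptor, rose likewise, to 13.8 ± 0.931 CPM in MEF2C hairpin libraries against 6.98 ± 0.0388 CPM in scramble libraries (SD, n = 3 each; log2 fold change 0.98, edgeR adjusted p = 1.1e-12). SESN2, a stress-induced inhibitor of mTORC1 that is also an ATF4 target, fell to 54.5 ± 2.97 CPM in MEF2C hairpin libraries, against 74.9 ± 0.792 CPM in scramble libraries (SD, n = 3 each; log2 fold change -0.45, edgeR adjusted p = 9.88e-13).

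Of genes for proteins that act on p53, all 35 listed regulators and cofactors were tested. Of these 5 rose (14.3%, where 13.5% of all tested genes did) and 12 fell (34.3%, where 15.3% did), with a median of -0.04. The list is highly expressed, and of its 16 genes at 100 CPM or over 7 fell, where 46.4% of all tested genes of that level did. Of its 16 genes between 20 and 100 CPM 5 fell, where 23.0% did, so the count is read as no result about the list. USP7, the deubiquitinase that stabilises MDM2 and p53, fell to 349 ± 3.59 CPM in MEF2C hairpin libraries, against 423 ± 4.65 CPM in scramble libraries (SD, n = 3 each; log2 fold change -0.28, edgeR adjusted p = 1.41e-13). HIPK2, a kinase that phosphorylates p53, rose by 0.29 (edgeR adjusted p = 1.09e-11) and USP10, another deubiquitinase of p53, by 0.22 (edgeR adjusted p = 2.49e-08) on the log2 scale. With quantile normalization 6 of the 35 were higher and 7 lower, where 2381 and 2366 of all 17677 tested genes were. With a log2 change of at least 0.2 also required, 2 of the 35 were higher and 1 lower. Of all tested genes, 8.73% and 5.01% were at that size.

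**Figure D4:**
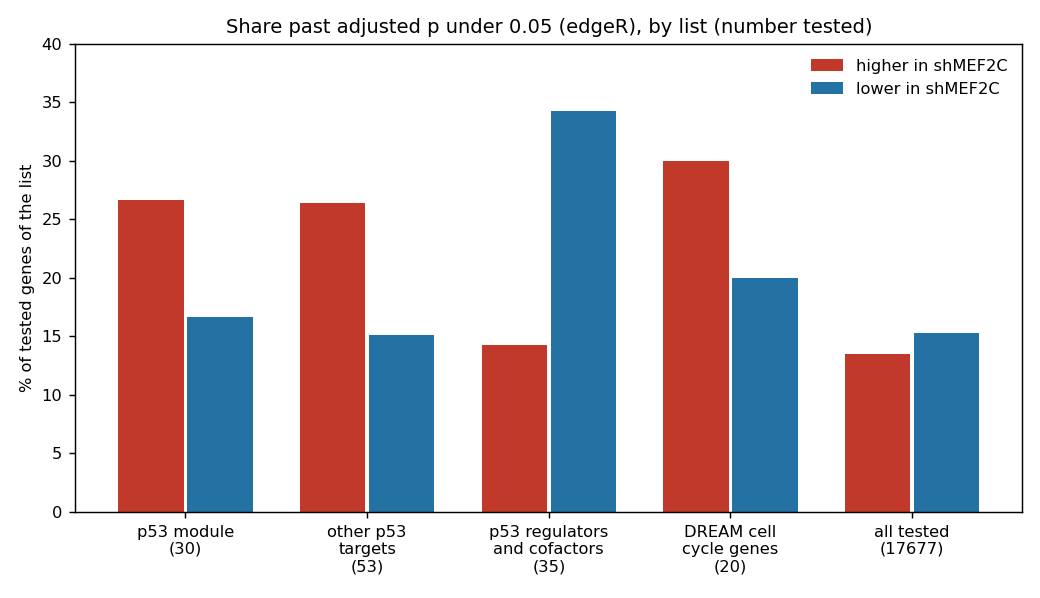
Share of the tested genes of each list that were higher (red) or lower (blue) in MEF2C hairpin libraries at an edgeR adjusted p under 0.05, with the number tested in brackets and all tested genes at the right. The p53 members and the other p53 targets show 26.7% and 26.4% higher, where all tested genes show 13.5%. These shares are not split by expression level, and the lists were chosen with earlier results of these data known. The count behind the 26.4%, 14 genes, was 9 without MEF2C hairpin replicate 1.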

How the data were processed

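The authors deposited whole-number read counts per gene, 1 table per library, without normalization. Trimming, alignment and counting used Trim Galore, STAR and HTSeq with hg38, per the submitters' processing notes; tool versions, annotation release and strand setting are not given in the sources used here. Reads were taken from TRIzol RNA and TruSeq libraries, per the labels' protocols. The 5 summary lines that name no gene, 19.2 to 31.4% of reads, stayed out of library sizes and tests. The tables carry HTSeq's line for ambiguous reads, so reads in more than 1 gene were set aside. This can lower overlapping genes, to an extent that depends on the strand setting where the genes lie on opposite strands.

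Genes passing filterByExpr (minimum count 10) were scaled by TMM and tested with edgeR 4.0.16 under R 4.3.3 (robust quasi-likelihood, group as the only term). Standard errors were obtained by dividing the size of each log2 fold change by the root of its F statistic. DESeq2 1.42.0 and limma 3.58.1 served as alternatives. Positions, exon lengths (all exons of a gene joined) and overlaps came from GENCODE 29 on GRCh38, which may not be the submitters' release. The chi-square per gene between replicates was 3.34 to 4.50, where sampling noise alone gives 1, and each library was counted.

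The members and lists were chosen with earlier results of these data known. All members are accounted for; those past the threshold are given in every library, and from each other list at most 3 genes with the smallest adjusted p are named.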

Additional observations from a re-analysis of the deposited data

How the results depend on the processing

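The count of members that rose was 6 to 9 over 15 alternatives, and 8 in each fit that left out a library. The count that fell was 3 to 5 when leaving out 1 library, and 1 with a log2 change of at least 0.2. A replicate block gave 8 higher and 5 lower members; same-numbered libraries did not deviate together (correlations of -0.10, 0.02 and 0.03 over 10207 genes), so the numbers do not pair them. The members' median was -0.0151 with the stricter filter. With quantile normalization TP53INP1 turned to -0.0225, ZMAT3 to 0.00813, CYFIP2 to 0.0451 and GADD45A to -0.00511, and ACER2 ranged from -0.223 to 0.0825 when leaving out 1 library, with the turn without scramble replicate 1; none of the 5 passed in any fit, and the cause was not tested. AEN passed without scramble replicate 1 (adjusted p = 0.0407, in a range of 0.0407 to 0.205), FBXO22 in limma-voom and without MEF2C hairpin replicate 1 (0.0401 to 0.321), and PRKAB1 with quantile normalization (0.0219 to 0.436).

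For the lists, these alternatives were chosen after seeing the data. Quantile normalization gave 7 lower regulators and 13 higher and 2 lower cell cycle genes, where 2381 of all 17677 tested genes were higher and 2366 lower. Other p53 targets that rose numbered 9 to 13 when leaving out 1 library. A log2 change of at least 0.2 left 9 higher and 3 lower other targets, and 2 higher and 1 lower regulators. It left 1 higher and 0 lower cell cycle genes, 3 higher T-lineage markers and 1 higher kidney marker. Of all tested genes, 8.73% were higher and 5.01% lower at that size. Kidney markers that rose numbered 0 to 1 when leaving out 1 library and 1 with no filter, the stricter filter or quantile normalization; those that fell numbered 0 to 1. With expression classes set by the mean of all libraries, 4.90% of genes under 1 CPM were higher, in place of 6.22%. Depth limits PHLDA3, TP53I3 and the 4 members not tested.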

Other observations

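Cell cycle genes that p53 is known to lower through p21 and the DREAM repressor complex did not move one way. Of 20, all were tested, 6 rose (13.5% of all tested genes did) and 4 fell (15.3% did), with a median log2 fold change of 0.03. Of the 18 at 100 CPM or over, 5 rose and 4 fell, where 11.5% and 46.4% of all tested genes of that level did. BIRC5, the apoptosis inhibitor survivin, fell to 237 ± 6.67 CPM in MEF2C hairpin libraries, against 263 ± 10.0 CPM in scramble libraries (SD, n = 3 each; log2 fold change -0.15, edgeR adjusted p = 1.17e-05). MKI67, the proliferation marker, fell to 1213 ± 8.59 CPM in MEF2C hairpin libraries, against 1310.1 ± 34.6 CPM in scramble libraries (SD, n = 3 each; log2 fold change -0.11, edgeR adjusted p = 1.78e-05). CENPE, a kinetochore motor, rose by 0.14 on the log2 scale (edgeR adjusted p = 0.000225). The split of this list changed under quantile normalization, to 13 higher and 2 lower, where 2381 and 2366 of all 17677 tested genes were. Upper-quartile scaling gave 6 higher and 3 lower, and DESeq2 size factors 6 and 4. Shares of all tested genes by expression level were not computed for these settings.

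Of the 9 T-lineage markers, 7 rose, where 13.5% of all tested genes did. Of the 6 at 100 CPM or over, 4 rose, where 11.5% of all tested genes of that level did. With a log2 change of at least 0.2 also required, 3 of the 9 were higher, where 8.73% of all tested genes were. CD7 rose by 0.60, CD5 by 1.09 and PTPRC by 0.14 on the log2 scale (edgeR adjusted p = 5.09e-15, 7.55e-15 and 1.27e-06). PTPRC, which white blood cells share in general, does not set the T lineage apart. Of the 8 embryonic kidney markers 4 were tested, and PODXL (0.15) and GPC3 (0.99) were higher and CRABP2 (-0.51) lower, with edgeR adjusted p = 0.0290, 0.0351 and 0.0153.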
